A study of Mus musculus with 9 samples.

Results

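The 10 genes described here belong to the Nodal and BMP pathways: the ligands Nodal and Bmp4, the Nodal co-receptor Tdgf1, the secreted Nodal antagonists Lefty1 and Lefty2, the BMP target genes Id1, Id2, and Id3, and the inhibitory Smads Smad6 and Smad7. They were taken by gene name from a table of 25965 genes, in which each has 1 row. RNA-seq had been performed on E14 mouse embryonic stem cells (ESCs; 129/Ola background) grown without feeders in serum and LIF, a cytokine that keeps ESCs undifferentiated. The labels name only the E14 line, whereas the study describes its knockdowns in cells with a pair of fluorescent reporters of the 2C-like state, MERVL::tdTomato and Zscan4c::eGFP. The cells received siRNA against Dppa2, siRNA against Dppa4, or a control siRNA, each a pool, at the start and again at 48 h, before collection at 96 h (4 d). Each siRNA had 3 libraries, lettered A, B, and C, making 9 in all. Dppa2 and Dppa4 are related DNA-binding proteins of the early embryo and ESCs, and the comparison asks how these signaling genes stood when either was reduced.

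Nodal is a secreted ligand of the TGF-beta family that is cut to its active form by the convertases Furin and Pcsk6. With the membrane-anchored protein Tdgf1 (Cripto) it engages activin receptors, after which Smad2 and Smad3 enter the nucleus and act with partners such as Foxh1, and the Lefty genes, being Nodal targets themselves, close a negative feedback loop. BMP4 signals through Bmpr1a and related receptors to Smad1, Smad5, and Smad9, and the Id genes are its best-known direct targets. Id proteins bind basic helix-loop-helix factors and keep them off DNA. In ESCs the BMP activity of serum is known to work with LIF against neural differentiation, in part through the Id genes, while Smad6 and Smad7 damp signaling, Smad6 mainly that of BMPs and Smad7 that of both branches.

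All values are the deposited log2 expression values, in which every gene with the same number of reads in a library has the same value, so they are not divided by gene length. Depth, estimated from reads on genes and given in Mreads, ran from 20.7 to 39.7 in control libraries, from 16.7 to 26.7 in Dppa2 siRNA libraries, and from 21.2 to 30.4 in Dppa4 siRNA libraries. The labels do not say whether the 3 libraries of a treatment came from separate cultures. The study calls the replicates behind its repeat expression in the same treatments biological, without saying what was repeated, and the p-values measure the spread between these libraries. Some libraries stood apart from their group, and some changes of the Id genes and Bmp4 are also given without single libraries. Across the tested genes the deviations of control library A and Dppa2 siRNA library B from their group means went together (Pearson r = 0.692), as did those of control library C and Dppa2 siRNA library A (Pearson r = 0.528). Dppa4 siRNA library C deviated with the first pair (r = 0.462 and 0.412) and library A with the second (r = 0.385 and 0.367), both less closely. The pattern is seen in Skil, a nuclear Smad partner singled out after its values were seen, at log2 values of 7.04 in control library A and 6.83 in Dppa2 siRNA library B against 5.47 to 6.30 in the other 7 libraries, of which Dppa4 siRNA library C was the highest.

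The siRNA targets were checked in each library. Dppa2 stood at 7.26, 7.16, and 6.94 in control libraries A, B, and C, at 3.36, 3.86, and 3.68 with Dppa2 siRNA, and at 7.01, 7.17, and 7.03 with Dppa4 siRNA. Dppa4 stood at 7.02, 7.11, and 7.06 with control siRNA, at 7.11, 7.07, and 7.17 with Dppa2 siRNA, and at 6.16, 6.14, and 6.09 with Dppa4 siRNA. Each transcript was called lower with its own siRNA and not with the other (adjusted p = 2.13e-05 for Dppa2 and 0.000281 for Dppa4 from limma). More Dppa4 than Dppa2 transcript remained, at 52.4% of control (95% confidence interval 46.4 to 59.2) against 8.93% (7.14 to 11.2). These are RNA levels only. By Western blot the study reports that Dppa4 siRNA also lowered Dppa2 protein, although Dppa2 mRNA stayed the same. Dppa2 siRNA lowered Dppa4 protein as well, but less. For Dppa4 siRNA, the study's qRT-PCR and blots gave a larger loss of Dppa4 than the RNA-seq values here.

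The cells had the transcripts of ESCs. Pou5f1, the defining pluripotency factor and the most abundant marker of its list, lay between 10.10 and 10.41 in the 9 libraries, and of the 12 pluripotent stem cell markers 1 was called in each knockdown, Fbxo15, an F-box gene expressed in ESCs, which fell to 53.2% of control with Dppa2 siRNA (adjusted p = 0.0017) and 46.1% with Dppa4 siRNA (adjusted p = 0.000544, both from limma). A gene was called here when limma, fitted across all 14601 tested genes, gave an adjusted p below 0.05. The 10 markers of 2C-like cells, a rare ESC state that resembles the early cleavage embryo, fell in both knockdowns. Summed on the linear scale they were at 98.9, 92.5, and 89.1 in the control libraries, 1.31, 0.715, and 1.36 with Dppa2 siRNA, and 1.22, 0.820, and 1.13 with Dppa4 siRNA. Zscan4d, the most abundant of them, was at 4.63 to 5.05 in the control libraries and at -3.80 to -1.40 in the knockdown libraries.

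Per kilobase of annotated exon, the order of the 10 genes in control cells ran from Tdgf1 to Smad6. The mean log2 level per kilobase was 7.27 for Tdgf1, which stood apart from the next gene. Lefty1 at 5.35, Nodal at 5.31, and Id1 at 5.17 followed, and the ranges of neighbours among these 3 overlapped in the control libraries. Lefty2 at 3.81 and Id3 at 3.52 also overlapped. Below them, Smad7 at 3.24, Id2 at 3.03, Bmp4 at 2.35, and Smad6 at 1.41 did not overlap with their neighbours in this order. The least abundant, Smad6, still rested on about 157 to 521 reads per library, an approximate number inferred from the order of the deposited values. All 10 genes passed the filter on low values.

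With Dppa2 siRNA, Id2 and Id3 fell and the other 8 genes were not called. With Dppa4 siRNA, Bmp4 rose and the other 9 were not called. Thus 2 of 10 were called with Dppa2 siRNA, where 3.44% of all tested genes were called (2.27% lower and 1.16% higher), and 1 of 10 with Dppa4 siRNA, where 3.44% were called (2.34% lower and 1.10% higher). These 3 calls also passed an intensity difference filter, which asks whether a gene changed more than the genes nearest in level and which left 2.01% and 2.0% of tested genes called. The median log2 change of the 10 genes was -0.08 for the Dppa2 and -0.12 for the Dppa4 knockdown, beside 0.02 and 0.03 for all tested genes, and the median size of the change was 0.24 and 0.20, beside 0.16 and 0.18. Both comparisons share the control libraries.

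**Figure D1:**
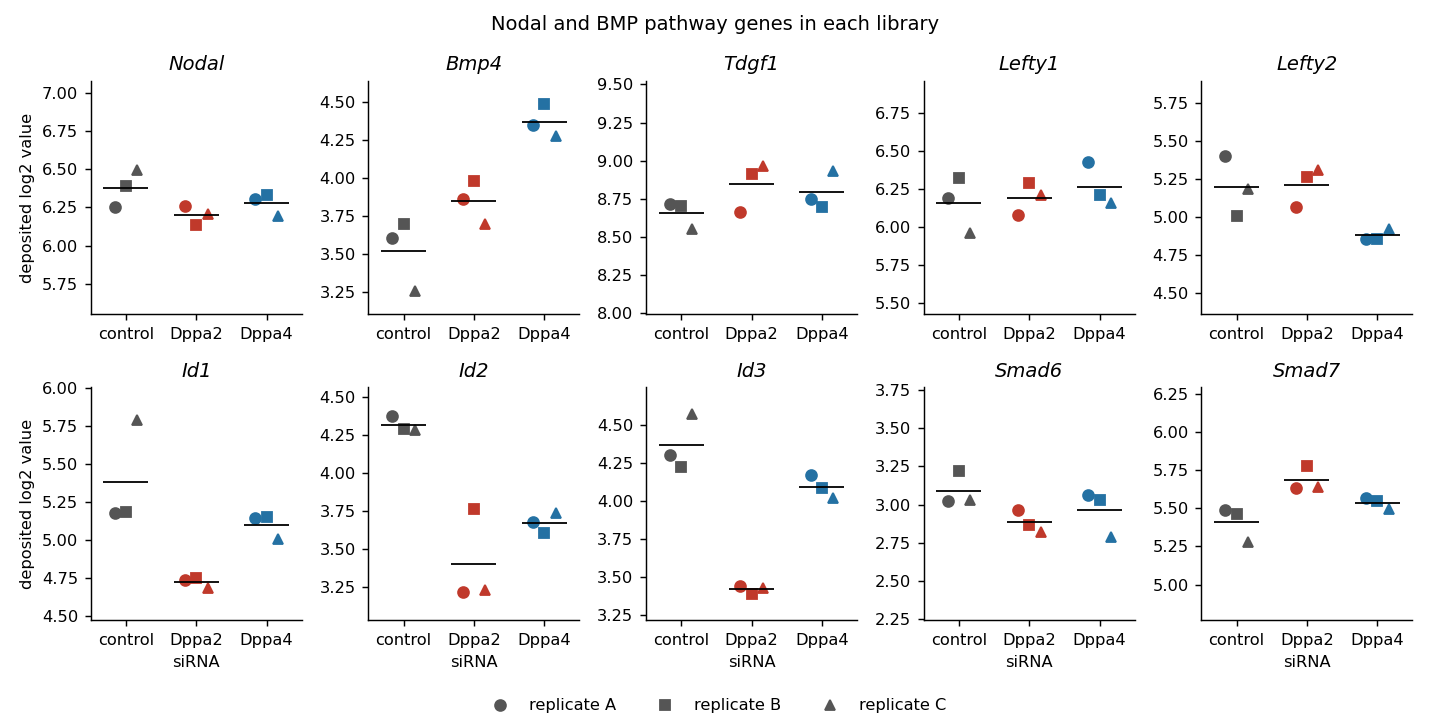
Deposited log2 values (y axis) of the 10 Nodal and BMP pathway genes in each library, by siRNA (x axis), with all panels spanning the same number of log2 units and circles, squares, and triangles for replicates A, B, and C; black lines are means of 3 libraries. The Dppa2 siRNA libraries lie below the control libraries for Id1, Id2, and Id3, and the Dppa4 siRNA libraries lie above all others for Bmp4.

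The ligand Nodal itself was not called in either knockdown. Nodal (ENSMUSG00000037171; chromosome 10, 61417972 to 61425338) was at 6.25, 6.39, and 6.50 with control siRNA, 6.26, 6.13, and 6.21 with Dppa2 siRNA, and 6.31, 6.33, and 6.19 with Dppa4 siRNA. The 3 treatments overlapped. The log2 changes of Nodal were -0.18 and -0.10 for the Dppa2 and the Dppa4 knockdown (SE 0.10 for each, adjusted p = 0.432 and 0.669 from limma), intervals of 75.9% to 102% and 80.2% to 108% of control. When libraries were left out in turn, the Dppa4 siRNA change of Nodal ranged from -0.17 to -0.043.

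Bmp4 was higher with Dppa4 siRNA. Bmp4 (ENSMUSG00000021835; chromosome 14, 46383520 to 46390669) was at 3.60, 3.70, and 3.26 in control libraries A, B, and C, at 3.86, 3.98, and 3.70 with Dppa2 siRNA, and at 4.35, 4.48, and 4.27 with Dppa4 siRNA. The Dppa4 siRNA libraries were above all others, and the Dppa2 siRNA libraries lay between them and the control libraries, with Dppa2 siRNA library C level with control library B at 3.70. With Dppa4 siRNA Bmp4 rose to 180% of control (145 to 225), a log2 change of 0.85 (SE 0.14, adjusted p = 0.0128 from limma). The call was kept in 16 of 18 alternatives, with changes of 0.72 to 0.94, and was lost without Dppa4 siRNA library A (adjusted p = 0.0605) or B (0.0797). With Dppa2 siRNA the log2 change was 0.33 (SE 0.14, adjusted p = 0.301 from limma), an interval of 101% to 156% of control, and without control library C, the lowest for Bmp4, it was 0.20 (adjusted p = 0.356). A pair of annotated genes on the opposite strand, Gm15217 and Gm15222, overlap Bmp4, and neither passed the filter on low values. Reads had been counted by strand. The transcript identifier and description in the Bmp4 row belong to Gm15217, whereas its name, position, and strand are those of Bmp4, which were used here.

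Some markers of primitive endoderm, an extraembryonic lineage of the blastocyst, were higher in the same libraries as Bmp4. Of 14 listed markers, all tested, 2 rose with Dppa4 siRNA and none fell, where 1.10% of all tested genes were called higher, and none was called with Dppa2 siRNA. With Dppa4 siRNA 10 of the 14 had a log2 change above 0 and 4 below, where 55.4% of all tested genes were above 0. Gata6, a transcription factor that specifies the lineage, was at 0.62, 0.56, and -0.28 in the control libraries, 1.03, 1.19, and 0.92 with Dppa2 siRNA, and 1.77, 1.81, and 1.64 with Dppa4 siRNA. Its log2 change with Dppa4 siRNA was 1.44 (SE 0.24, adjusted p = 0.0132 from limma). Gata6 lost its call without Dppa4 siRNA library A (0.0666) or B (0.076), as did Bmp4. Calls were fewer among all tested genes in those fits. Without A or B, 25 and 16 genes were called higher with Dppa4 siRNA, against 160 with every library. Sox17, another endoderm factor, was at -0.75 to -0.13, -0.17 to 0.51, and 0.61 to 0.73 with control, Dppa2, and Dppa4 siRNA, and its log2 change in the Dppa4 knockdown was 1.20 (SE 0.25, limma adjusted p = 0.0348). The Sox17 call was kept in 9 of 18 alternatives and was lost without control library A (0.118) or C (0.0826) and without Dppa4 siRNA library A (0.143), B (0.136), or C (0.105). It was also lost with the replicate letter as a block (0.1), with only the 2 groups compared (0.0659), and without the filter on low values (0.098). The 4 markers with changes below 0 in the Dppa4 knockdown were the laminins Lamb1 (-0.36, 66.5% to 91.0% of control, limma adjusted p = 0.0928) and Lama1 (-0.17), Amn (-0.30), and Sparc (-0.09), none of them called. All 3 Dppa4 siRNA libraries were below the control libraries for Lamb1 and, at 6.81, 6.88, and 6.88 against 6.88 to 7.01, narrowly for Sparc. The Dppa2 siRNA libraries were also below control for Sparc, at 6.67 to 6.73 (log2 change -0.23, not called). Gata6 and Sox17 were scarce, with about 22 to 84 reads for Gata6 per control library. With a pseudocount of 1 added on the linear scale, their Dppa4 siRNA changes were smaller, at 0.95 for Gata6 and 0.60 for Sox17. Both were still called. The median log2 change over the 14 markers was 0.32 with Dppa4 siRNA and 0.13 with Dppa2 siRNA, beside 0.03 and 0.02 for all tested genes. Their summed linear level, in which the matrix gene Sparc (log2 values 6.67 to 7.01) and the laminin Lamb1 weigh most, was 319 ± 16 in control, 289 ± 5.50 in Dppa2 siRNA, and 297 ± 11.4 in Dppa4 siRNA libraries (means ± SD, n = 3 each). In bulk RNA, a change in the number of cells of a type and a change in RNA per cell cannot be told apart, and the part of such cells in the level of Bmp4 was not tested.

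**Figure D2:**
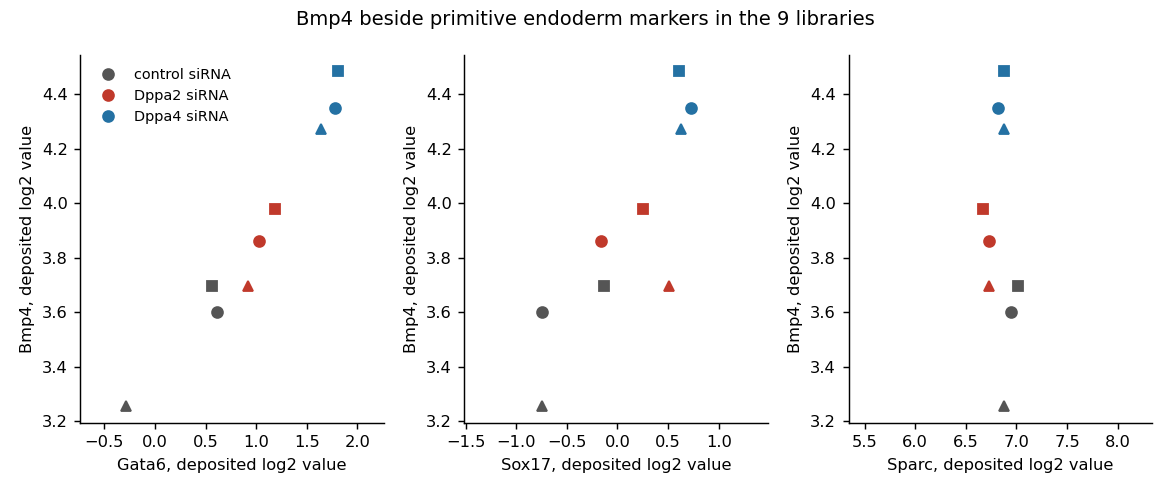
Deposited log2 values of Bmp4 (y axis) against those of Gata6, Sox17, and Sparc (x axes, each spanning the same number of log2 units), 1 point per library, with gray, red, and blue for control, Dppa2, and Dppa4 siRNA and circles, squares, and triangles for replicates A, B, and C. Control library C is lowest for both Bmp4 and Gata6, the Dppa4 siRNA libraries are highest for both, and Sparc, between 6.67 and 7.01 in all libraries, is lower in both knockdowns than in control, narrowly so with Dppa4 siRNA.

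Gata6 was also among the 3 genes whose values were most like those of Bmp4 over the 9 libraries. These were A430057M04Rik (Pearson r = 0.986), Gata6 (0.976), and Pomt1 (0.969), out of 14600 tested genes, and the points share the treatments and the libraries' depth. The genes most like Nodal by the same measure were Shf (0.976), Adck1 (0.973), and Exoc3 (0.959).

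Tdgf1, the co-receptor, was the most abundant of the 10 genes in every library. Tdgf1 (ENSMUSG00000032494; chromosome 9, 110939610 to 110946158) was at 8.72, 8.70, and 8.55 with control siRNA, 8.67, 8.91, and 8.96 with Dppa2 siRNA, and 8.75, 8.69, and 8.93 with Dppa4 siRNA. The treatments overlapped, and the changes of 0.19 and 0.14 had intervals of 95.9% to 136% and 92.4% to 131% of control (adjusted p = 0.499 and 0.608 from limma). The Dppa4 siRNA change of Tdgf1 ranged from 0.066 to 0.19 when libraries were left out in turn. Of the 50-base stretches of its transcripts, 12.0% also occur in the pseudogene Tdgf1-ps1, so reads there cannot be assigned to either.

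The Nodal antagonists lie close together on chromosome 1 and share sequence. Of the 50-base stretches of the Lefty1 transcripts 21.8% also occur in Lefty2, and of those of Lefty2 12.1% occur in Lefty1, so their levels are not fully separate measurements. Lefty1 (ENSMUSG00000038793; 180935022 to 180938400) was at 6.19, 6.33, and 5.96 with control siRNA, 6.08, 6.29, and 6.21 with Dppa2 siRNA, and 6.43, 6.21, and 6.16 with Dppa4 siRNA. Lefty2 (ENSMUSG00000066652; 180893108 to 180899103) was at 5.40, 5.01, and 5.18 with control siRNA, 5.07, 5.27, and 5.31 with Dppa2 siRNA, and 4.86, 4.86, and 4.92 with Dppa4 siRNA. Lefty1 overlapped across treatments, whereas for Lefty2 the Dppa4 siRNA libraries were below all others. Lefty2 nevertheless was not called with Dppa4 siRNA, at a log2 change of -0.32 (SE 0.12, adjusted p = 0.206 from limma), or 66.5% to 97.0% of control. Lefty1 was at 0.11 with Dppa4 siRNA (88.7% to 131% of control, adjusted p = 0.747 from limma), and with Dppa2 siRNA Lefty1 and Lefty2 were at log2 changes of 0.03 and 0.02, with intervals of 84.3% to 124% and 83.9% to 122%, and both signs turned when single libraries were left out. The Dppa4 siRNA change of Lefty1 ranged from 0.0061 to 0.19 in the same way, without a change of sign.

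Of the BMP target genes, Id3 and Id2 fell with Dppa2 siRNA, and Id1 was not called. Id3 (ENSMUSG00000007872; GRCm38 chromosome 4, 136143497 to 136145755) was at 4.30, 4.22, and 4.57 in control libraries A, B, and C, at 3.44, 3.39, and 3.43 with Dppa2 siRNA, and at 4.17, 4.09, and 4.02 with Dppa4 siRNA. The 3 treatments did not overlap, with Dppa2 siRNA lowest and Dppa4 siRNA between. With Dppa2 siRNA Id3 fell to 52.0% of control (95% confidence interval 43.5 to 62.1), a log2 change of -0.94 (SE 0.11, adjusted p = 0.00213 from limma). This call was kept in all 18 alternatives, with log2 changes between -1.02 and -0.84. In Dppa4 siRNA cells Id3 was at 69.3% to 98.9% of control, a log2 change of -0.27 with an SE of 0.11 (adjusted p = 0.247, limma), and without control library C the change was -0.17 (adjusted p = 0.336).

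Id2 (ENSMUSG00000020644; chromosome 12, 25093801 to 25096092) was at 4.37, 4.29, and 4.28 in the control libraries, at 3.22, 3.76, and 3.23 with Dppa2 siRNA, and at 3.68, 3.60, and 3.74 with Dppa4 siRNA. All 6 knockdown libraries lay below the 3 control libraries, and both knockdowns overlapped with each other through Dppa2 siRNA library B. With Dppa2 siRNA Id2 fell to 53.2% of control (42.1 to 67.4), a log2 change of -0.91 (SE 0.15, adjusted p = 0.012 from limma). The adjusted p was less stable than that of Id3, and the call was kept in 12 of 18 alternatives. It was lost without control library A (0.0556) or B (0.067), without Dppa2 siRNA library A (0.0568) or C (0.0658), with only the 2 groups compared (0.0723), and with the replicate letter as a block (0.0551). The change itself stayed between -1.09 and -0.82, and without control library A and Dppa2 siRNA library B together, the pair that deviated most alike, it was -1.06 (adjusted p = 0.00711 from limma; this exclusion was chosen after seeing the data). With Dppa4 siRNA the log2 change of Id2 was -0.64 (SE 0.15, adjusted p = 0.0564 from limma), or 64.2% of control (50.7 to 81.2), and was not called. It crossed the threshold in 3 of 18 alternatives: with only the 2 groups compared (0.0337), without Dppa2 siRNA library B (0.0111), and without that library and control library A (0.0329).

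Id1 (ENSMUSG00000042745; chromosome 2, 152736251 to 152737410) had a control library that stood apart. Its values were 5.18, 5.19, and 5.79 with control siRNA, 4.74, 4.75, and 4.69 with Dppa2 siRNA, and 5.15, 5.16, and 5.01 with Dppa4 siRNA. Every Dppa2 siRNA library was below every other library, and the Dppa4 siRNA libraries lay just under control libraries A and B. The log2 change with Dppa2 siRNA was -0.66 (SE 0.16, adjusted p = 0.0645 from limma), or 63.4% of control (49.3 to 81.4), which was not called. Without control library C it was smaller, at -0.45, with an adjusted p of 0.0478 from limma. In Dppa4 siRNA cells the change was -0.28 (SE 0.16, adjusted p = 0.414, limma), and without control library C it was -0.08 (adjusted p = 0.604). Control library C was also the highest of its group for Id3 and the lowest for Bmp4, and without it the change of Id3 with Dppa2 siRNA was -0.84 (adjusted p = 0.00842 from limma).

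The promoters of Id2 and Id3 were searched for letters to which Smads are known to bind, since these were the genes called with Dppa2 siRNA. The motifs were GGCGCC, a GC-rich element of BMP Smads that reads the same on both strands, and the Smad-binding element CAGAC, which reads as GTCTG on the other strand. These motifs share no overlap. In the 250 bases before the RefSeq start sites of GRCm38.p6, windows were at hand for 6 of the 10 genes, Id2 and Id3 among them. There was none for Id1, which was not searched. GGCGCC was found in 9.59% and CAGAC in 42.2% of 32851 such windows. Id2 held GGCGCC once and no CAGAC, and Id3 held CAGAC on each strand and no GGCGCC. The stretches around these letters are shown because they lie before the RefSeq start sites of the called Id genes, 5′ to 3′ on the strand of the gene, with the motif in capitals. Those of Id3 do not lie before the gene as located above, since its GENCODE annotation starts farther upstream and holds both inside an exon.
Id2, chr12:25096306-25096335, minus strand: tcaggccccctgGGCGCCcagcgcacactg
Id3, chr4:136143643-136143672, plus strand: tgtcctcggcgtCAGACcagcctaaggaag
Id3, chr4:136143742-136143771, plus strand: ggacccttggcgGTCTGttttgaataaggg
Among the other windows, Tdgf1 held CAGAC once, and Nodal, Bmp4, and Smad6 held neither motif. A match is a description of the sequence, and binding was not measured here.

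The inhibitory Smads were not called either. Smad6 (ENSMUSG00000036867; chromosome 9, 63953076 to 64022059) was at 3.02, 3.22, and 3.03 with control siRNA, 2.96, 2.87, and 2.82 with Dppa2 siRNA, and 3.06, 3.03, and 2.79 with Dppa4 siRNA. Smad7 (ENSMUSG00000025880; chromosome 18, 75367529 to 75395935) was at 5.49, 5.47, and 5.28 with control siRNA, 5.64, 5.78, and 5.64 with Dppa2 siRNA, and 5.57, 5.55, and 5.49 with Dppa4 siRNA. Smad6 lay just below its control range with Dppa2 siRNA. Smad7 lay above its control range in both knockdowns, though Dppa4 siRNA library C was level with control library A at 5.49. With Dppa2 siRNA the log2 changes were -0.21 for Smad6 (SE 0.12, adjusted p = 0.504 from limma) and 0.27 for Smad7 (SE 0.09, adjusted p = 0.191 from limma). In the Dppa4 knockdown they were -0.13 and 0.12 (adjusted p = 0.671 and 0.584 from limma). When libraries were left out in turn, these ranged from -0.18 to -0.044 for Smad6 and from 0.056 to 0.16 for Smad7.

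**Figure D3:**
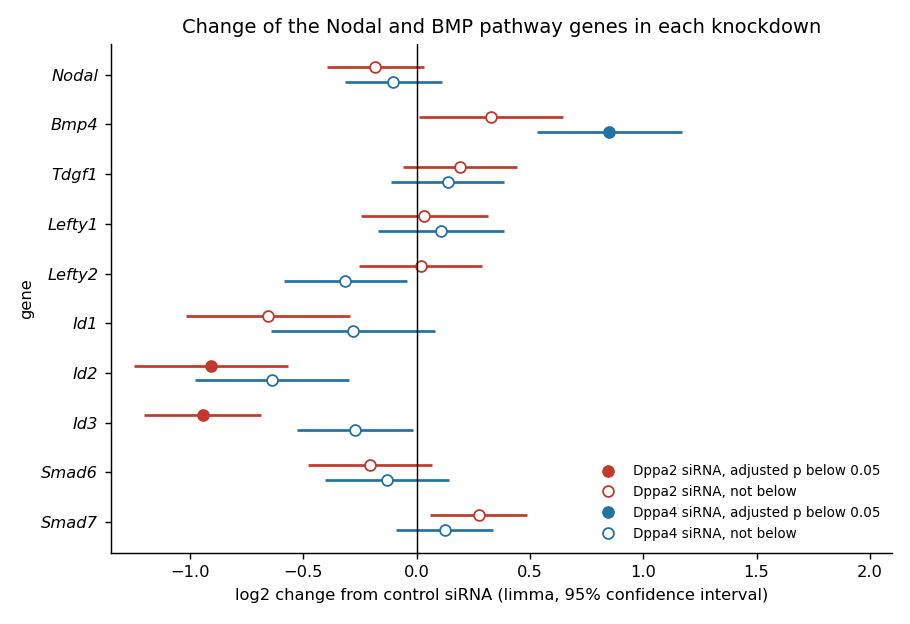
Change of each of the 10 genes from control siRNA (x axis, log2 units) with Dppa2 siRNA (red) and Dppa4 siRNA (blue), with points for limma estimates from 3 libraries per group and lines for 95% confidence intervals. Filled points have an adjusted p below 0.05, namely Id2 and Id3 with Dppa2 siRNA and Bmp4 with Dppa4 siRNA.

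In both comparisons 6 of the 10 genes had libraries that did not overlap with the control libraries, where 17.8% of all tested genes did not overlap with Dppa2 siRNA and 23.9% with Dppa4 siRNA. With Dppa2 siRNA these were Id1, Id2, Id3, and Smad6 below and Bmp4 and Smad7 above. With Dppa4 siRNA they were Lefty2, Id1, Id2, and Id3 below and Bmp4 and Smad7 above. Each count includes a gene that is level with control at 2 decimals. These are Bmp4 with Dppa2 siRNA (3.69621 against 3.69568) and Smad7 with Dppa4 siRNA (5.493 against 5.49252). An exact permutation test of 3 libraries against 3 cannot give a two-sided p below 0.10, so separation alone does not reach the threshold used here.

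The knockdowns were then compared with each other. None of the 10 genes was called between Dppa4 and Dppa2 siRNA, where 0.0205% of tested genes were called (3 genes) and 987 of 14601 had an unadjusted p below 0.05 from limma. At the unadjusted p of 0.05, 4 of the 10 genes passed: Id3, Bmp4, Id1, and Lefty2. Id3 was higher with Dppa4 than with Dppa2 siRNA by a log2 difference of 0.67 (SE 0.11, adjusted p = 0.406 from limma), an interval of 133% to 190% of the Dppa2 siRNA level. Bmp4 differed by 0.52 (SE 0.14, adjusted p = 0.586), Id1 by 0.38 (SE 0.16, adjusted p = 0.724), and Lefty2 by -0.33 (SE 0.12, adjusted p = 0.678). That Id3 was called with Dppa2 siRNA alone, and Bmp4 with Dppa4 siRNA alone, is therefore not shown to be a difference between the knockdowns.

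Other genes of these pathways were examined in 6 lists of 73 genes, of which 63 were tested. With Dppa2 siRNA none was called, and with Dppa4 siRNA 1 fell and 1 rose, where 3.44% of all tested genes were called in either comparison, so the count of 2 of 63 is near the background and is not a result about these pathways. The 63 genes had median log2 changes of -0.07 with Dppa2 siRNA and -0.06 with Dppa4 siRNA, beside 0.02 and 0.03 for all tested genes. The gene that fell was Eng, which encodes endoglin, a TGF-beta and BMP co-receptor. Its values were 4.63, 4.94, and 4.58 with control siRNA, 4.34, 4.02, and 4.20 with Dppa2 siRNA, and 4.16, 4.01, and 3.82 with Dppa4 siRNA, so that both knockdowns lay below the control libraries. The log2 change of Eng was -0.72 in the Dppa4 knockdown (SE 0.14, limma adjusted p = 0.0287), and in the Dppa2 knockdown it was -0.53 (SE 0.14, limma adjusted p = 0.0902). The gene that rose was Dusp9, a phosphatase of ERK that BMP signaling is known to raise in ESCs, at 6.71, 6.78, and 6.77 with control siRNA, 6.89, 6.97, and 6.92 with Dppa2 siRNA, and 7.12, 7.17, and 7.05 with Dppa4 siRNA. The 3 treatments did not overlap, and its change with Dppa4 siRNA was 0.36 (SE 0.08, adjusted p = 0.0422 from limma) against 0.18 with Dppa2 siRNA (SE 0.08, adjusted p = 0.328). These calls were less stable than those of Id3 and Bmp4. That of Eng was kept in 9 of 18 alternatives and was lost without control library A (0.0716) or B (0.0971), Dppa2 siRNA library C (0.0608), or Dppa4 siRNA library A (0.0617), B (0.119), or C (0.105). The Eng call was also lost with the replicate letter as a block (0.0878), with only the 2 groups compared (0.0694), and without the filter on low values (0.055). That of Dusp9 was kept in 5 of 18 and was lost whichever single library was left out (adjusted p = 0.0526 to 0.218 from limma), with the block (0.137), with only the 2 groups compared (0.128), and without the intensity trend (0.066).

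**Figure D4:**
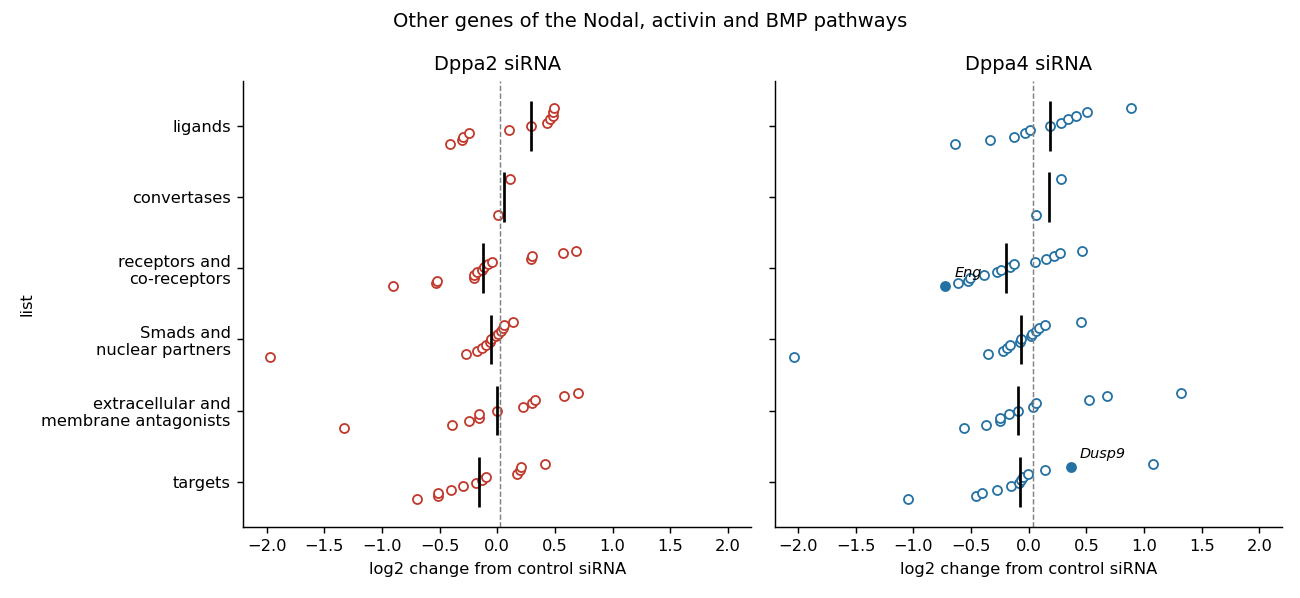
Log2 change from control siRNA (x axis) of the 63 other tested genes of the Nodal, activin, and BMP pathways in 6 lists (y axis), 1 point per gene, with filled points for an adjusted p below 0.05, a black line for the median of each list, and a dashed line for the median of all tested genes. Of the 63 genes, Eng and Dusp9 with Dppa4 siRNA are the called ones.

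By role, 11 of 17 other ligands were tested. Gdf3, a Nodal-related ligand, and Inhbb, an activin subunit, were the most abundant, with Tgfb1 next, and Gdf3 was at 6.11 to 6.24 in control, 5.77 to 5.99 in Dppa2 siRNA, and 6.09 to 6.28 in Dppa4 siRNA libraries (log2 changes of -0.30 and 0.01, adjusted p = 0.156 and 0.974 from limma). Inhbb was at log2 changes of 0.11 and 0.28 and Tgfb1 at 0.46 and 0.41, none of them called. The median change of the ligand list was 0.29 for the Dppa2 and 0.18 for the Dppa4 knockdown. Inhba, Tgfb3, Bmp2, Bmp5, Bmp15, and Gdf6 did not pass the filter on low values. Both convertases were tested and neither was called, Pcsk6 at log2 changes of 0.01 and 0.28 and Furin at 0.11 and 0.06.

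Among 14 tested receptors of 15, Bmpr1a, the main BMP receptor of ESCs, was the most abundant but varied widely between libraries, at 5.33, 4.85, and 4.48 with control siRNA and 4.53, 5.35, and 4.65 with Dppa2 siRNA, highest in control library A and Dppa2 siRNA library B. Its changes of -0.04 and -0.16 had intervals of 65.1% to 145% and 60.0% to 133% of control, so a moderate change in this receptor was not detectable here. Acvr1b, a Nodal receptor, was at 0.29 and 0.15 (adjusted p = 0.221 and 0.535 from limma). Acvr1c did not pass the filter. The list medians were -0.12 and -0.20.

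All 13 Smads and nuclear partners were tested and none was called, with medians of -0.05 and -0.07. The most abundant, the corepressors Tgif1, Ski, and Skil, were at log2 changes of 0.13, 0.01, and -0.27 with Dppa2 siRNA and 0.02, 0.03, and -0.35 with Dppa4 siRNA. Smad9, a BMP Smad named here after its values were seen, had at most about 22 reads per library, at -1.22, -1.54, and -0.74 with control siRNA, -4.05, -1.72, and -3.65 with Dppa2 siRNA, and -3.82, -2.99, and -2.81 with Dppa4 siRNA. Its log2 changes of -1.97 and -2.04 were not called (adjusted p = 0.157 and 0.129 from limma). Of 14 antagonists 11 were tested and none was called, with medians of -0.0028 and -0.09. Twsg1, which binds BMPs outside the cell, was at 4.66 to 5.01 in control, 4.71 to 4.90 in Dppa2 siRNA, and 4.37 to 4.54 in Dppa4 siRNA libraries (adjusted p = 0.996 and 0.133 from limma). The ubiquitin ligases Smurf1 and Smurf2 were at -0.15 and -0.24 with Dppa2 siRNA and at -0.09 and -0.25 with Dppa4 siRNA. Cer1 and Grem1 were among those that did not pass the filter. In the list of 12 other target genes, medians were -0.16 and -0.07, and after Dusp9 the most abundant was Eomes, a target of Nodal signaling in mesoderm, at log2 changes of 0.21 with Dppa2 siRNA and -0.01 with Dppa4 siRNA.

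Markers of other cell types were read beside these results. Of 8 fibroblast markers 3 were tested, and Pdgfrb, a growth factor receptor, was called higher in both comparisons. Its log2 changes were 1.08 for Dppa2 siRNA and 0.90 for Dppa4 siRNA (adjusted p = 0.00718 and 0.0173, limma). The Dppa2 siRNA call of Pdgfrb was kept in 17 of 18 alternatives and the Dppa4 siRNA call in 10 of 18 (adjusted p up to 0.0851, limma), and the latter was lost without control library A or B, without any 1 of the Dppa4 siRNA libraries, with the block, and with only the 2 groups compared. Lum was at 0 reads in every library, and Col3a1, Twist2, Dcn, and Col1a2, which did not pass the filter, reached at most about 3, 5, 7, and 15 reads. Col1a1, a collagen of the same list named after its values were seen, was low but present, at log2 values of 0.25 to 0.99 (about 26 to 74 reads per library) and log2 changes of 0.30 and 0.10, not called. The part of fibroblasts in these results was not tested. The most abundant of this list, Thy1, was at log2 changes of -0.23 and 0.12, not called. The list summed to 9.42 ± 0.853 in control, 11.5 ± 1.04 in Dppa2 siRNA, and 11.9 ± 1.61 in Dppa4 siRNA libraries (linear scale, means ± SD, n = 3 each).

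None of the primed epiblast, trophoblast, primitive streak and mesoderm, or neurectoderm markers was called in either knockdown. Dnmt3b, Tead4, Eomes, and Nes were the most abundant of these lists. Elf5, Tpbpa, Zic1, Hes5, and Neurog2 did not pass the filter, and Tpbpa was at 0 reads in every library. The 4 tested neurectoderm markers had median changes of -0.45 with Dppa2 siRNA and -0.32 with Dppa4 siRNA, and their list summed to 40.0 ± 6.25, 30.6 ± 1.19, and 28.3 ± 1.64 in control, Dppa2 siRNA, and Dppa4 siRNA libraries (linear scale, means ± SD, n = 3 each). In the same order the primed epiblast list summed to 356 ± 61.9, 362 ± 54.6, and 372 ± 30.6, the trophoblast list to 23.0 ± 5.27, 23.1 ± 1.3, and 22.2 ± 0.296, and the streak list to 8.74 ± 1.27, 8.88 ± 0.594, and 8.97 ± 0.891. The part of such cells in the lower Id levels was not tested.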

How the data were processed

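The authors trimmed the reads with Trim Galore (0.4.5 in the submitters' processing notes), mapped them with HISAT2 2.0.5 to GRCm38, quantitated them by strand on mRNA probes in SeqMonk, matched the cumulative distributions of the libraries, and deposited log2 values. Matching forces like distributions on the libraries, so a shift of most genes would not be seen. Genes above -2 in at least 3 libraries (14601) were fitted with limma 3.58.1 (R 4.3.3) on all 9 libraries, with treatment as the only term, an intensity trend, and Benjamini-Hochberg adjustment. Since the values are log2 and not counts, limma took the place of the DESeq2 test used by the authors. The intensity filter used the 1% of genes nearest in level, at p below 0.05. Reads were inferred from the order of distinct values up to 300 reads and from their slope between 300 and 700 reads, and are approximate and cover counting error only. The 50-base stretches were taken every 5 bases and looked up in GENCODE transcripts. Named were all members, the called and the 3 most abundant genes of each pathway list, the most abundant, called, and absent markers, and the 3 genes most like Nodal and Bmp4, except that some listed genes are not reported here. The members and lists were chosen with earlier results of these data known. Figures were made with matplotlib 3.10.9.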

Additional observations from a re-analysis of the deposited data

How the results depend on the processing

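Of 540 recomputed changes of the 10 genes (30 changes under 18 alternatives each), 519 kept their direction and side of the threshold, 8 lost and 6 gained a call, and 7 changed sign, all of these among values not called. Leaving out libraries in turn, Lefty1 with Dppa2 siRNA ranged from -0.067 to 0.12 (lowest without control library C, and -0.01 without Dppa2 siRNA library B), Lefty2 with Dppa2 siRNA from -0.077 to 0.12 (lowest without control library B, -0.01 without Dppa2 siRNA library B, and -0.03 without library C), Lefty1 between the knockdowns from -0.0095 to 0.13, Tdgf1 between them from -0.14 to 0.0043, and Dppa2 in Dppa4 siRNA cells from -0.14 to 0.0203, the last without control library A. Leave-one-out counts of the 10 genes called were 1 to 3 for Dppa2 siRNA, 0 to 2 for Dppa4 siRNA, and counts of all genes called were 120 to 413, 149 to 496, and, between the knockdowns, 1 to 3. Without control library A and Dppa2 siRNA library B together, an exclusion chosen after seeing the data, 125 and 235 genes were called, 2 of the 10 with Dppa4 siRNA, and 4 between the knockdowns.

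Without the filter on low values, 4 of the 10 genes and 9140 of all genes were called with Dppa2 siRNA (9.79% of them lower), 470 with Dppa4 siRNA (72.6% lower), and 5 between the knockdowns. Of those 9140, 7462 were genes at the lowest value in all 9 libraries, which differs slightly by library. With only the 2 groups compared, 1 and 2 of the 10 genes and 230 and 294 of all genes were called, 90.4% and 85.4% of them lower. With the replicate letter as a block (replicate block), 1 of the 10 genes was called with Dppa2 siRNA, and 238, 212, and 1 of all genes, with 86.1% and 85.4% lower in the knockdowns. Deviations of same-letter libraries correlated at -0.585 to 0.367, and those of different-letter libraries at -0.658 to 0.692. With spreads this wide, the correlations cannot decide whether the letters pair the libraries. The high-confidence rule, which adds the intensity filter, left 293 and 292 genes. The cause of these differences was not tested. Smad6, with as few as about 157 reads in a library, is the least precise of the 10 genes by counting alone.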
